A study of Rattus norvegicus with 15 samples.

Results

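The genes of the rat major histocompatibility complex (MHC) and of antigen presentation were measured in isolated islets of Langerhans by sequencing of polyadenylated RNA. The set holds 42 of the 28914 genes in the count table: the 31 genes whose symbol starts with RT1-, the name of the rat MHC, and 11 partner genes named by function (B2m, Tap1, Tap2, Tapbp, Psmb8, Psmb9, Psmb10, Cd74, Ciita, Nlrc5 and Erap1). By symbol, 21 RT1 genes are class I and 10 are class II (the B, D, DM, DO and H loci), and 9 partners serve class I and 2, Cd74 and Ciita, class II. The islets came from Lewis rats, an inbred strain, which the labels describe as 4 to 5 weeks old without naming the point of the study. They were collected 10 weeks after removal of 90% of the pancreas (partial pancreatectomy, Px, n = 10) or after a sham operation (Sham, n = 5). Average blood glucose before tissue collection, given without a unit, was 88 to 96 in Sham. It was 104 to 211 in 7 Px rats, called lower-glucose Px here, and 416 to 464 in 3 Px rats, called higher-glucose Px. No other allele, drug or diet is named for any group, a mark in the titles (Inc_YES) carried by all 15 libraries is not explained, and each library was taken as 1 rat.

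Class I molecules display peptides from inside the cell to CD8 T cells and are carried by nearly all nucleated cells. Their heavy chain pairs with beta-2 microglobulin (B2m). Peptides are cut by the proteasome, whose immunoproteasome form uses Psmb8, Psmb9 and Psmb10, carried into the endoplasmic reticulum by Tap1 and Tap2, trimmed by Erap1 and loaded with the help of Tapbp. Class II molecules display peptides from endosomes to CD4 T cells and are mostly made by dendritic cells, macrophages and B cells. Their alpha and beta chains assemble on the invariant chain Cd74, and the DM and DO molecules control the exchange of peptides. Ciita and Nlrc5 are the transactivators of class II and class I genes and work through factors bound at the X and Y boxes of their promoters.

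The promoters of 5 members are shown because they hold the class II and class I motifs counted beside them: the class II genes RT1-Da (chr20:4515215-4515414, plus strand) and RT1-Db1 (chr20:4560163-4560362, minus strand), the class I gene RT1-A2 (chr20:4872671-4872870, plus strand), and the class I partners B2m (chr3:129549130-129549329, plus strand) and Psmb10 (chr19:50743293-50743492, minus strand). Each is the 200 bases before the transcription start in RefSeq's GRCr8 annotation, 5′ to 3′. Capitals mark matches to a Y box (CTGATTGG), an X box core (GNAACNGAT), a kappaB site (GGGATTCCC) or an interferon response core (GAAANNGAA) on either strand.
B2m: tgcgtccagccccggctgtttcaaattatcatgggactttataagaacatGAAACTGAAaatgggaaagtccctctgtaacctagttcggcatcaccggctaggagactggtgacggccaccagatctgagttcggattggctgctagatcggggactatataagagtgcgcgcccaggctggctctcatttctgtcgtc
RT1-A2: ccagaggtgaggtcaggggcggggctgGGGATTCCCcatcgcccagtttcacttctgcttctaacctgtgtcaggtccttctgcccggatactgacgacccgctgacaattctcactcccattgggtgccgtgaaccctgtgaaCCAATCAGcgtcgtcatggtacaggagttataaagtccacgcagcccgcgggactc
Psmb10: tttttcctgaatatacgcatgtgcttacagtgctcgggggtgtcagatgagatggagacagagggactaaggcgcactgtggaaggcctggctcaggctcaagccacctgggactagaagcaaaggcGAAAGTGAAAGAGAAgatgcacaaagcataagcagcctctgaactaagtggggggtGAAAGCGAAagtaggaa
RT1-Da: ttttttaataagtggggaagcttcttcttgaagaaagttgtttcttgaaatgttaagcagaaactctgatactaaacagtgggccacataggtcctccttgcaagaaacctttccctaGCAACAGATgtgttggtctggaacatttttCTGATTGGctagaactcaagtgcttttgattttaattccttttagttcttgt
RT1-Db1: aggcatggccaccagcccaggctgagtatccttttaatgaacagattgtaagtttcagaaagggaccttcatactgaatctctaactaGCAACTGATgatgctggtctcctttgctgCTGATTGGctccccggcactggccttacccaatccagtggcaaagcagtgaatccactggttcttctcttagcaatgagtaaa

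Of the 42 members, 35 have a promoter in the RefSeq table, searched from 250 bases before the start to 50 after it. The Y box letters stood in 7 of 9 class II RT1 promoters, 6 of 18 class I RT1 promoters, 1 of 7 class I partner promoters and not in that of Cd74, against 3.5% of all 33469 promoters of this length. The X box letters stood in 5 of 9 class II RT1 promoters, 0 of 18 class I RT1 promoters and 2% of all promoters. In RT1-Da, RT1-Db1 and RT1-Db2 the X match began 30, 29 and 28 bases before the Y match. In RT1-Bb the distance was 121 bases. The kappaB letters stood in RT1-A1, RT1-A2, RT1-CE4 and RT1-CE10, all class I, and in 0.365% of all promoters. The interferon response letters stood in 6 of 7 class I partners (B2m, Psmb8, Psmb10, Tap1, Tap2 and Tapbp), in RT1-N3, RT1-S2 and RT1-S3, in no class II promoter and in 9.71% of all promoters. No matches of different motifs overlapped in a member. A match describes letters, not a bound factor.

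Library totals were 12205650 to 18428397 counts in Sham and 19108091 to 33423286 in Px. Levels are CPM, counts relative to library sizes scaled by TMM, and tests are edgeR quasi-likelihood tests with Benjamini-Hochberg adjustment over all genes tested, called at 0.05. Ptprc, the pan-leukocyte gene CD45, was 1.27 to 2.57 CPM in Sham and 12.5 to 136 CPM in Px. The summed level of 13 macrophage and monocyte markers was 29.4 to 69.1 CPM in Sham and 712 to 3705 CPM in Px, that of 10 dendritic cell markers 8.52 to 11.5 and 80.0 to 415 CPM, and that of 14 T and NK cell markers 8.49 to 14.9 and 53.4 to 217 CPM. The 7 B cell markers summed to 0.23 to 1.01 CPM in Sham and 2.57 to 16.8 CPM in Px. Of those tested, 12 of 12 macrophage, 8 of 9 dendritic cell, 11 of 11 T and NK cell and 2 of 2 B cell markers were higher in Px. Over all genes tested 34.5% were. Markers nearly absent in Sham could pass the filter on low counts only through Px and then had to differ. These counts are therefore a description. The 16 acinar markers, genes of the exocrine pancreas, summed to 6493 to 116471 CPM in Sham and 157894 to 750355 CPM in Px. Beta cell markers (10 genes) summed to 88308 to 191499 CPM in Sham and to 38737 to 80317 CPM in Px, so these genes were abundant in every library. Lower-glucose Px replicate 8 stood apart: its macrophage sum of 3705 CPM was 4.23 times the median of the other lower-glucose libraries, whose highest was 1804 CPM. These cell type values differed between Px and Sham without overlap, and their part in the results below was not tested. In such bulk samples, more cells of a type and more RNA per cell cannot be told apart.

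Class II genes were far higher in Px than in Sham islets, and class I genes were higher by less. The 4 class II RT1 genes that passed the filter on low counts in Sham as well, RT1-Da, RT1-Db1, RT1-Ba and RT1-Bb, were all higher in Px, by 13.97 to 19.12 times, with a median log2 fold change of 3.97. Of 15 class I RT1 genes tested, 14 were higher and 1, RT1-M3-1, was lower, with a median of 1.23. All 9 class I partners (median 1.70) and both class II partners were higher. Over the series, 34.5% of 15199 genes were called higher and 30.2% lower, with a median of 0.02. The filter (0.449 CPM on unscaled totals) left 8 members out of this comparison. A further 4, RT1-DOa, RT1-DOb, RT1-Db2 and RT1-DMb, reached it in at most 1 Sham library and so passed through Px: they had to differ, and their folds are given as a description. Without them 29 of 30 members tested were higher, and in 21 every Px library lay above every Sham library, which held for 20.6% of all genes tested. Of these 21, 6 were class II genes and partners, out of 6, 8 were class I RT1 genes, out of 15, and 7 were class I partners, out of 9. Scaled by library totals, with which the median of all genes is −0.62, the 4 class II genes stayed higher but 6 class I RT1 genes did, where 17.5% of all genes were higher. With 8 endocrine granule genes as the scale, with which that median is 0.46, the 4 class II and 14 class I RT1 genes were higher and 0 lower, where 48.9% of all genes were higher. With a macrophage marker score in the model no gene of the series passed (edgeR, 0 of 15199 genes and 0 members, 1840 genes and 1 member at an unadjusted p under 0.05), and 94.6% of the variance of that score lay between Px and Sham.

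**Figure D1:**
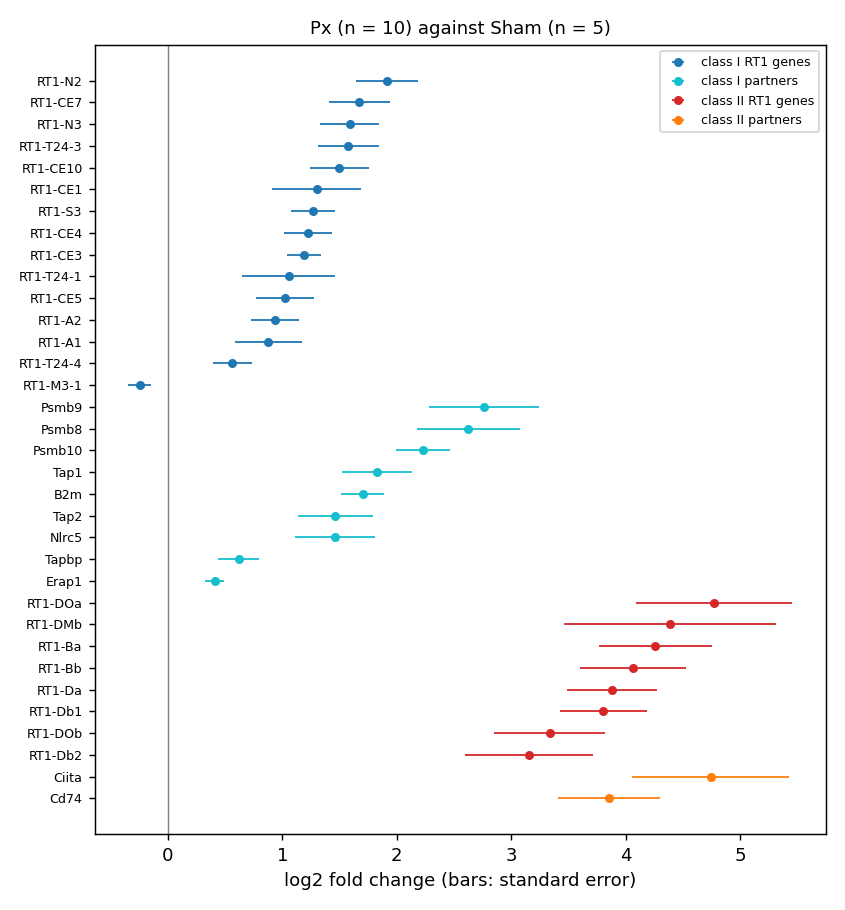
Log2 fold change (x axis) of the 34 tested members in Px against Sham, with bars for the standard error and colours for class and role. Class II RT1 genes lie between 3.16 and 4.77, the 4 lowest in level among them having passed the filter through Px, and class I RT1 genes between −0.24 and 1.92.

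Among the class II chains, RT1-Da, the alpha chain of the D molecule (chromosome 20, 4127644 to 4132616 in the coordinates of the count table, whose build no source used here gives), was the most abundant per library. It was 24, 33.6, 29.4, 36.3 and 29.0 CPM in the 5 Sham libraries (replicates 23, 27, 24, 26 and 25, the order used throughout). It ran from 292 CPM through a median of 403 to 1218 CPM in lower-glucose Px, and was 221, 344 and 255 CPM in higher-glucose Px (replicates 13, 19 and 15, likewise). Every Px library lay above every Sham library, and the highest was replicate 8. The log2 fold change of Px against Sham was 3.88 ± 0.39 (standard error, as for all below; edgeR adjusted p = 3.93e-07). Its partner beta chain RT1-Db1, which like RT1-Da carries both X and Y letters in the printed promoter, was 6.0, 10.0, 9.09, 12 and 11.3 CPM in Sham. It was 96.0, 131 and 317 CPM at the lowest, median and highest of lower-glucose Px and 74.4, 109 and 64.6 CPM in higher-glucose Px (3.80 ± 0.38, edgeR adjusted p = 3.86e-07). Again no Px library fell into the Sham range.

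The B molecule's alpha chain RT1-Ba (chromosome 20, 4066132 to 4070721) was 7.37, 7.86, 8.08, 13.2 and 7.92 CPM in Sham. It ran from 104 through 134 to 563 CPM in lower-glucose Px and was 83.2, 85.9 and 104 CPM in higher-glucose Px (4.26 ± 0.49, edgeR adjusted p = 1.59e-06). All 3 higher-glucose libraries lay below all 7 lower-glucose ones, by a narrow margin, a pattern seen in 4.73% of all genes. Its beta chain RT1-Bb was 6.95, 6.64, 5.91, 11.8 and 6.86 CPM in Sham, 74.7, 101 and 386 CPM at the lowest, median and highest of lower-glucose Px and 60.4, 77.7 and 85.3 CPM in higher-glucose Px (4.06 ± 0.46). Both chains were highest in replicate 8 and, within Sham, in replicate 26. Per kilobase of exon, the level of RT1-Da was 3.29 to 5.21 times that of RT1-Db1 in single libraries, and that of RT1-Ba 3.15 to 4.62 times that of RT1-Bb. The group medians of these ratios were 4.13, 3.89 and 4.02 for D and 3.43, 3.92 and 3.62 for B in Sham, lower- and higher-glucose Px, so both chains of each molecule rose together. RT1 genes are polymorphic and some are near-identical, so reads may be shared or lost between copies, and comparisons of level between RT1 genes are uncertain.

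The class II genes that edit peptides were rare. RT1-DOa, the DO alpha chain, averaged 0.104 ± 0.061 CPM in Sham (SD, n = 5) and 2.84 ± 2.54 CPM in Px (SD, n = 10), 4.77 ± 0.68 on the log2 scale. RT1-DOb, the beta chain, averaged 0.215 ± 0.109 and 2.21 ± 1.48 CPM (3.34 ± 0.48), and RT1-DMb, the DM beta chain, 0.0732 ± 0.0495 and 1.54 ± 2.14 CPM (4.38 ± 0.93). RT1-Db2, a further D beta gene, averaged 0.124 ± 0.071 and 1.17 ± 0.70 CPM (3.16 ± 0.56). RT1-DMa, the DM alpha chain, did not pass the filter in the comparison of all Px with Sham. Its libraries held 1 count in all of Sham and 165 in all of Px. The ratio of CPM was 72.0, with an exact 95% interval of 12.7 to 2860 for counting error only. Lower-glucose Px replicate 8 alone held 71 of these 165 counts, and 220 of the 404 Px counts of RT1-DMb. RT1-Ha held 0 counts in Sham, which allows 0.0296 CPM (3 counts over the group), and 34 in Px, so its pooled level was at least 4.94-fold higher than that allowance. The exact 95% lower bound of its ratio, for counting error only, is 3.81.

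The class II partners rose as far as the chains. Cd74, the invariant chain (chromosome 18, 56071478 to 56080849), was 44.0, 61.1, 59.3, 80.7 and 54.6 CPM in Sham. It ran from 566 through 746 to 2639 CPM in lower-glucose Px and was 419, 550 and 454 CPM in higher-glucose Px. The 3 groups did not overlap, with higher-glucose Px between the others and close to lower-glucose Px (550 against 566 CPM). Every higher-glucose library lay below every lower-glucose one in 4.73% of all genes, and every Px library above every Sham library in 20.6%. The log2 fold change of Px against Sham was 3.86 ± 0.44 (edgeR adjusted p = 1.46e-06). Per kilobase of exon, the mean level of Cd74 rose from 43.1 ± 9.60 CPM in Sham to 619 ± 469 CPM in Px (SD, n = 5 and n = 10), beside 112 ± 7.48 and 363 ± 101 CPM for B2m. The mean of Cd74 was above that of B2m in lower-glucose Px (739 ± 523 and 333 ± 95.1 CPM, SD, n = 7), where replicate 8 stands apart, and below it in higher-glucose Px (341 ± 48.7 and 431 ± 94.1 CPM, SD, n = 3). Ciita, the class II transactivator (chromosome 10, 5213350 to 5260608), was 0.947, 0.404, 0.808, 0.895 and 0.616 CPM in Sham. It was 10.1, 13.8 and 80.0 CPM at the lowest, median and highest of lower-glucose Px and 7.48, 6.79 and 13.1 CPM in higher-glucose Px (4.74 ± 0.68, edgeR adjusted p = 1.49e-05). Of 6 tested subunits of RFX, NF-Y and CREB, factors that Ciita works with at the promoter, 0 were higher and 2 lower, a share near the 30.2% of all genes: Nfyb (−0.53 ± 0.10) and Rfxank (−0.36 ± 0.11, edgeR adjusted p of 0.000126 and 0.0118). Rfx5 was at −0.30 ± 0.13, Nfya at 0.19 ± 0.13, Nfyc at 0.01 ± 0.09 and Creb1 at 0.35 ± 0.17, and Rfxap was not tested. In lower-glucose Px alone Nfya was called higher (0.29 ± 0.11, edgeR adjusted p = 0.0275).

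Among class I genes, the light chain B2m (chromosome 3, 114087287 to 114093309) was 188, 211, 198, 224 and 202 CPM in Sham. It ran from 481 through 519 to 959 CPM in lower-glucose Px and was 644, 978 and 740 CPM in higher-glucose Px (1.70 ± 0.19, edgeR adjusted p = 8.8e-07). The Sham libraries were close to each other and far below every Px library. The classical class I heavy chain genes rose less and overlapped with Sham. RT1-A1 (chromosome 20, 5351605 to 5421098) was 16.8, 22.5, 13.1, 19.7 and 19.98 CPM in Sham, 15.5, 24.9 and 46.5 CPM at the lowest, median and highest of lower-glucose Px and 36.5, 38.3 and 69.4 CPM in higher-glucose Px (0.88 ± 0.29, edgeR adjusted p = 0.0149). The lowest lower-glucose libraries lay within the Sham range, and no higher-glucose one did. RT1-A2 was 12.9, 14.3, 9.74, 11.1 and 9.06 CPM in Sham, 13.8, 18.8 and 30.6 CPM at the lowest, median and highest of lower-glucose Px and 20.5, 26.8 and 26.7 CPM in higher-glucose Px (0.94 ± 0.21, edgeR adjusted p = 0.000817). Scaled by library totals, RT1-A1 was at 0.18 and RT1-A2 at 0.25, neither of them called (edgeR adjusted p = 0.558 and 0.36). The acinar score as a covariate also ended both calls (0.35 and 0.96, edgeR adjusted p = 0.676 and 0.101). Of that score's variance 76.5% lay between Px and Sham, and 6086 of 15199 genes passed beside it. A call that ended with it, here and below, cannot be told from lost precision, and the part of acinar RNA was not tested. The 2 genes share 546 bases of exon in the count table, so their reads are partly ambiguous.

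The 6 tested genes of the RT1-CE cluster all rose, by 1.02 to 1.67 on the log2 scale. RT1-CE7 (chromosome 20, 4694472 to 4896970) rose most, from 17.3 ± 5.69 CPM (SD, n = 5) in Sham to 54.6 ± 20.1 CPM (SD, n = 10) in Px (1.67 ± 0.27, edgeR adjusted p = 4.07e-05). Its Px libraries ran from 35.2 to 89.4 CPM, all above the highest Sham library at 25.8 CPM. RT1-CE4 rose from 19 ± 2.72 to 44.2 ± 14.3 CPM (1.23 ± 0.21), also without overlap, and RT1-CE5 from 19.2 ± 3.81 to 38.9 ± 15.7 CPM (1.02 ± 0.25), with overlap. RT1-CE10 (4.25 ± 0.90 to 11.9 ± 4.46 CPM), RT1-CE3 (3.06 ± 0.33 to 6.95 ± 1.30 CPM) and RT1-CE1 (5.31 ± 2.98 to 13 ± 7.26 CPM) were rarer. By exon position each of them but RT1-CE10 overlaps another CE gene, so the split of reads among them is uncertain. With the acinar score RT1-CE5 (0.86, edgeR adjusted p = 0.174) and RT1-CE1 (0.48, edgeR adjusted p = 0.579) did not pass, and by library totals RT1-CE1, RT1-CE3, RT1-CE4 and RT1-CE5 did not (0.40 to 0.67, edgeR adjusted p of 0.051 to 0.221).

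The non-classical class I genes were less uniform. RT1-S3 was 10.7, 9.36, 10.7, 14.6 and 10.1 CPM in Sham, 19.2, 22.7 and 48.1 CPM at the lowest, median and highest of lower-glucose Px and 25.7, 29.2 and 29.0 CPM in higher-glucose Px (1.27 ± 0.19, edgeR adjusted p = 2.46e-05). RT1-N2 (1.92 ± 0.27), RT1-N3 (1.59 ± 0.26) and RT1-T24-3 (1.58 ± 0.27) rose without overlap with Sham at Px means of 5.49, 8.50 and 5.14 CPM. RT1-T24-4 rose by 0.57 ± 0.17, at −0.10 by library totals and without a call with the acinar score (0.32, edgeR adjusted p = 0.49). RT1-T24-1 rose by 1.06 ± 0.41 (edgeR adjusted p = 0.0308), a call that ended without Sham replicate 23, 25 or 27 (edgeR adjusted p of 0.0618 to 0.0836) and with library totals (0.38), the acinar score (0.54) and limma voom (0.81). RT1-M3-1, whose mouse counterpart presents formylated peptides, was the exception in direction. It was 25.4, 25.2, 22.7, 25.1 and 26.8 CPM in Sham, 18.3, 21.3 and 27.4 CPM at the lowest, median and highest of lower-glucose Px and 17.3, 20.1 and 19.4 CPM in higher-glucose Px. Its fall by 0.24 ± 0.10 on the log2 scale (edgeR adjusted p = 0.042) lost its call in 12 of 15 fits that each left out 1 library (edgeR adjusted p up to 0.0929). The sign turned, to 0.23 with endocrine scaling and 0.023 with the acinar score. Per kilobase of exon RT1-M3-1 had the highest mean level of the class I RT1 genes in Sham (13.5 ± 0.78 CPM, SD, n = 5), next to RT1-T24-4 (11.7 ± 1.31) and RT1-CE5 (10.4 ± 2.06), whose ranges meet. RT1-M5, RT1-M6-1, RT1-M6-2 and RT1-S2 reached at most 0.607 CPM in any library and did not pass the filter in any comparison of groups. RT1-M2 did not pass it in the comparison of all Px with Sham. It held 2 counts in all of Sham and 145 in all of Px, 69 of these in lower-glucose Px replicate 8 alone. The ratio of CPM was 31.6, with an exact 95% interval of 8.60 to 264 for counting error only. RT1-M4 held 0 counts in all 15 libraries, which allows 0.00901 CPM (3 counts over all libraries).

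The peptide supply of class I rose with uneven strength. The immunoproteasome subunits Psmb9 (2.76 ± 0.48), Psmb8 (2.63 ± 0.45) and Psmb10 (2.23 ± 0.24) rose most (edgeR adjusted p of 9.29e-05 or below). Psmb10, the most abundant of them, whose printed promoter holds 3 interferon response matches, was 6.47, 6.07, 4.49, 8.91 and 7.35 CPM in Sham, 21.3, 25.1 and 57.3 CPM at the lowest, median and highest of lower-glucose Px and 31.2, 25.8 and 30.7 CPM in higher-glucose Px. Psmb9 was 1.16 to 1.57 CPM in Sham and 4.87 to 33.8 CPM in Px. Both gave no overlap between Px and Sham. The standard subunits that they replace, Psmb5 (0.33 ± 0.14), Psmb6 (0.48 ± 0.27) and Psmb7 (0.03 ± 0.09), gave 0 calls of 3 in edgeR (adjusted p = 0.0515, 0.128 and 0.788, with 1 at an unadjusted p under 0.05). Tap1, a chain of the peptide transporter, was 6.06 to 9.98 CPM in Sham and 15.6 to 64.7 CPM in Px (1.83 ± 0.30), and Tap2 rose by 1.46 ± 0.33. Tapbp, which bridges the transporter and class I, rose by 0.62 ± 0.18 and the trimming peptidase Erap1 by 0.41 ± 0.08, both overlapping with Sham. By library totals these were −0.012 and −0.23 and Tap2 did not pass (0.93, edgeR adjusted p = 0.0703). Neither Tapbp (0.65) nor Erap1 (0.41) passed beside an acinar covariate (edgeR adjusted p = 0.179 and 0.0808). Nlrc5, the class I transactivator, was 6.42, 4.45, 5.70, 3.09 and 3.74 CPM in Sham, 7.56, 11.3 and 31.0 CPM at the lowest, median and highest of lower-glucose Px and 7.88, 8.83 and 6.59 CPM in higher-glucose Px (1.46 ± 0.35, edgeR adjusted p = 0.0016). The lowest higher-glucose library lay just above the highest Sham library, and on its own that group did not pass against Sham (0.74 ± 0.38, edgeR adjusted p = 0.107). By library totals the call of Nlrc5 ended (0.91, edgeR adjusted p = 0.082).

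Ratios of 2 genes counted in 1 library do not depend on how libraries are scaled, so they were tested for 7 pairs in Px against Sham and in higher- against lower-glucose Px, 14 exact two-sided permutation tests adjusted together. The log2 ratio of Cd74 to B2m averaged −1.80 ± 0.23 over the 5 Sham libraries and 0.20 ± 0.73 over the 10 Px libraries (SD, n = 5 and n = 10), a difference of 2.0 (exact p = 0.000333, adjusted 0.000777, the smallest that 3003 splits can give). All 10 Px libraries lay above the 5 Sham libraries. Ciita over Nlrc5 differed by 3.0, Psmb8 over Psmb5 by 2.03, Psmb9 over Psmb6 by 1.97 and Psmb10 over Psmb7 by 2.17, each higher in every Px library than in every Sham library with the same exact p. Against Ptprc, the ratios of the partners B2m and Cd74 were both lower on average in Px, by different amounts. The log2 ratio of B2m to Ptprc fell from 6.87 ± 0.43 in Sham to 4.37 ± 0.93 in Px, a difference of −2.50 (exact p = 0.000333, adjusted 0.000777). That of Cd74 to Ptprc was 5.08 ± 0.55 in Sham and 4.57 ± 0.30 in Px, a difference of −0.51 that did not pass (exact p = 0.035, adjusted 0.0544) but did without Sham replicate 23 (−0.64) or 24 (−0.65) or higher-glucose Px replicate 13 (−0.56) or 19 (−0.55, adjusted p from exact tests of 0.0202 to 0.0432).

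**Figure D2:**
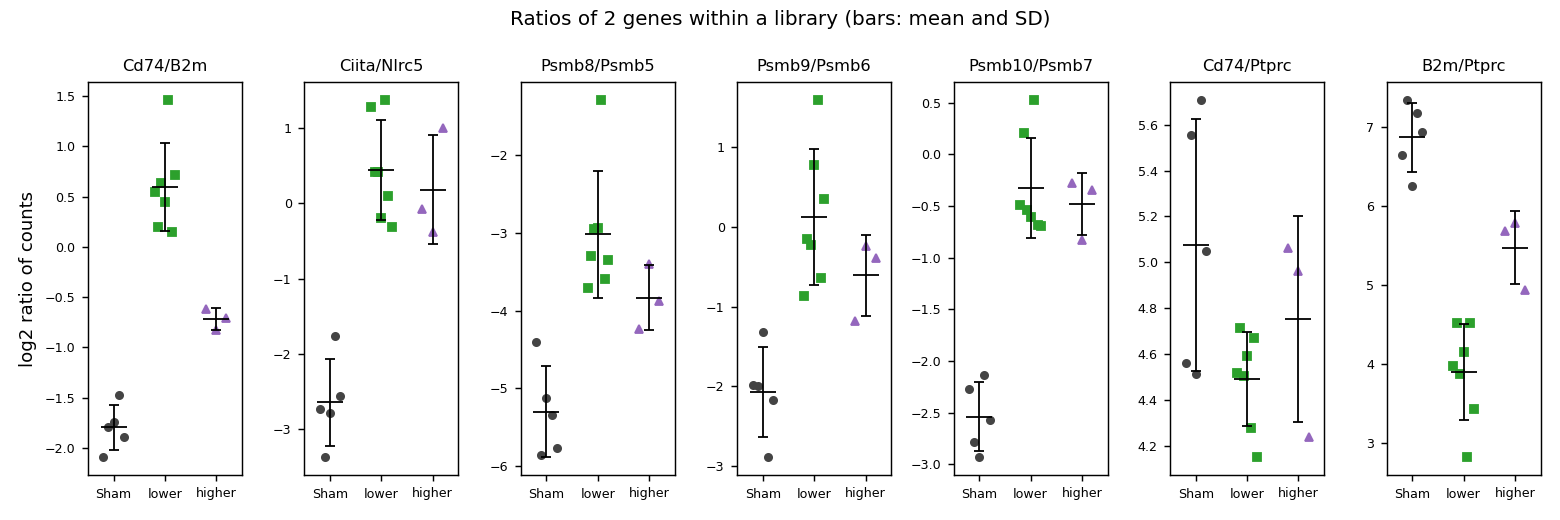
Log2 ratio of the counts of 2 genes (y axis, own scale in each panel) in every Sham, lower-glucose and higher-glucose Px library, with mean and SD. Cd74 over B2m lies between −2.09 and −1.47 in Sham, between 0.15 and 1.46 in lower-glucose Px and between −0.83 and −0.62 in higher-glucose Px.

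Other genes of the pathway were read from lists. Of 8 genes of class II processing, 7 rose and 0 fell (median 1.22), among them Ctsh, an endosomal protease (1.96 ± 0.13), and Lgmn, legumain (1.23 ± 0.09). Of 7 genes of costimulation and coinhibition, 5 rose and 0 fell, with Icoslg, the ligand of ICOS, at 2.33 ± 0.21 and Cd86, a ligand of CD28, at 4.22 ± 0.49. Of 14 further class I loading genes, 2 rose, Psme1 (0.72 ± 0.15) and Psme2 (0.46 ± 0.17), subunits of the proteasome activator PA28, and 4 fell, among them Nrdc, a peptidase (−0.68 ± 0.08), and Canx, the chaperone calnexin (−0.54 ± 0.08). The median of this list was −0.12. Of 9 interferon gamma signalling genes, 7 rose and 1 fell (median 0.91): Irf8, a myeloid transcription factor, rose by 3.34 ± 0.33, Ifngr1, a receptor chain, by 1.12 ± 0.12, and Irf2 fell by 0.34 ± 0.12. Ifng itself held too few counts to test. Of 5 class I-like genes outside the RT1 symbols, 3 rose and 2 fell: Fcgrt, the neonatal Fc receptor (2.44 ± 0.17), and Procr (2.40 ± 0.24) rose, and Hfe, an iron regulator (−0.62 ± 0.13), and Mr1, which presents vitamin metabolites (−0.70 ± 0.26), fell. The calls named in this paragraph had an edgeR adjusted p of 0.0263 or below, against the shares of 34.5% higher and 30.2% lower in all genes. Which of these genes passed the filter on low counts only through Px was not examined, so the counts are a description.

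Summed over genes, the class II level relative to class I differed between the groups. The 10 class II RT1 genes summed to 45.0 to 73.8 CPM in Sham, 573 to 2512 CPM in lower-glucose Px and 444, 622 and 513 CPM in higher-glucose Px. The 21 class I RT1 genes summed to 138 to 180 CPM in Sham, 238 to 509 CPM in lower-glucose Px and 339, 357 and 447 CPM in higher-glucose Px. The class II sum was 0.294 to 0.411 times the class I sum in Sham, 2.41 to 4.94 times in lower-glucose Px and 1.15 to 1.75 times in higher-glucose Px. The 3 ranges of this ratio did not meet, whereas each sum overlapped between the Px groups. This is a description of the sums, with no test.

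**Figure D3:**
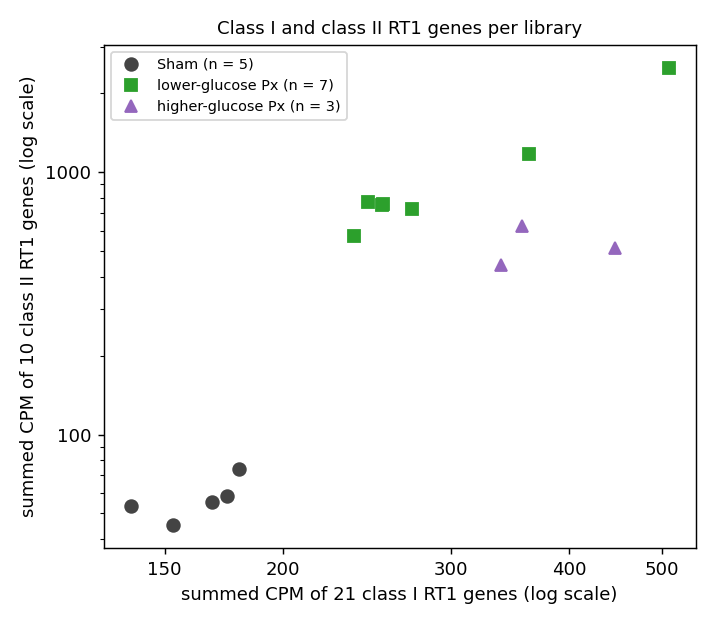
Summed CPM of the 21 class I RT1 genes (x axis, log scale) and of the 10 class II RT1 genes (y axis, log scale) in each library. Higher-glucose Px libraries lie to the right of most lower-glucose ones at a lower class II sum of 444 to 622 CPM.

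Against the same 5 Sham libraries, each Px group gave its own values. Of 36 members tested, 6 (the 4 above, RT1-DMa and RT1-M2) passed the filter only through Px and are left out of these counts. In lower-glucose Px 27 of 30 members were higher and 0 lower, against 33.6% of all genes higher, with medians of 4.19 for 4 class II and 1.15 for 15 class I RT1 genes. In higher-glucose Px 28 of 30 were higher and 1 lower, RT1-M3-1, against 32.2% of all genes higher, with medians of 3.23 and 1.39. By library totals 27 of all 36 members were higher in lower-glucose Px, where 19.7% of all genes were and their median was −0.48. In higher-glucose Px 13 of 36 were, where 11.9% of all genes were and their median was −0.96. Unlike the counts before, these 36 include the 6 members that passed the filter only through Px, so both shares are a description.

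Tested directly, no member passed between higher- and lower-glucose Px (edgeR, 0 of 36, with 12 or 33.3% at an unadjusted p under 0.05), where 4.88% of all genes did and 22.8% had such an unadjusted p. The log2 fold changes of RT1-Ba (−1.15 ± 0.44), RT1-Bb (−0.996 ± 0.43), RT1-Da (−0.92 ± 0.36) and RT1-Db1 (−0.92 ± 0.34) were negative. So were those of Cd74 (−1.11 ± 0.40, edgeR adjusted p = 0.119) and Ciita (−1.40 ± 0.58, edgeR adjusted p = 0.166). All 9 class II RT1 genes tested were negative (median −1.14), which is a description. RT1-DMa and RT1-Db2 passed the filter chiefly through lower-glucose Px, so their sign was largely fixed in advance, and this median is RT1-Db2's own value. Class II medians below share this limit. Of 16 class I RT1 genes, 12 had a positive value (median 0.27), led by RT1-A1 (0.81 ± 0.29, edgeR adjusted p = 0.11), and so did B2m (0.38 ± 0.19), which was −0.09 by library totals and −0.10 with endocrine scaling. With these scalings the class I median was −0.24 and −0.20, so its sign depends on the scale. Class I partners were mostly negative, such as Nlrc5 (−0.94 ± 0.37) and Tap1 (−0.73 ± 0.32). DESeq2 called RT1-Da (−0.93, adjusted p = 0.0496) and RT1-Db1 (−0.93, adjusted p = 0.0467) lower. These 2 of 36 members are a share near that of all genes, of which DESeq2 called 678 of 15661 lower. Without lower-glucose replicate 8 the medians were −0.55 for class II and 0.45 for class I, and RT1-A1 passed (0.99, edgeR adjusted p = 0.0356). With endocrine scaling 11 members were lower, where the median of all genes moved to −0.45 and 4510 genes were called lower. Every higher-glucose library lay below every lower-glucose one for Cd74 and RT1-Ba (2 of 36 members, 4.73% of all genes) and above it for 0 of 36 (5.22%).

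**Figure D4:**
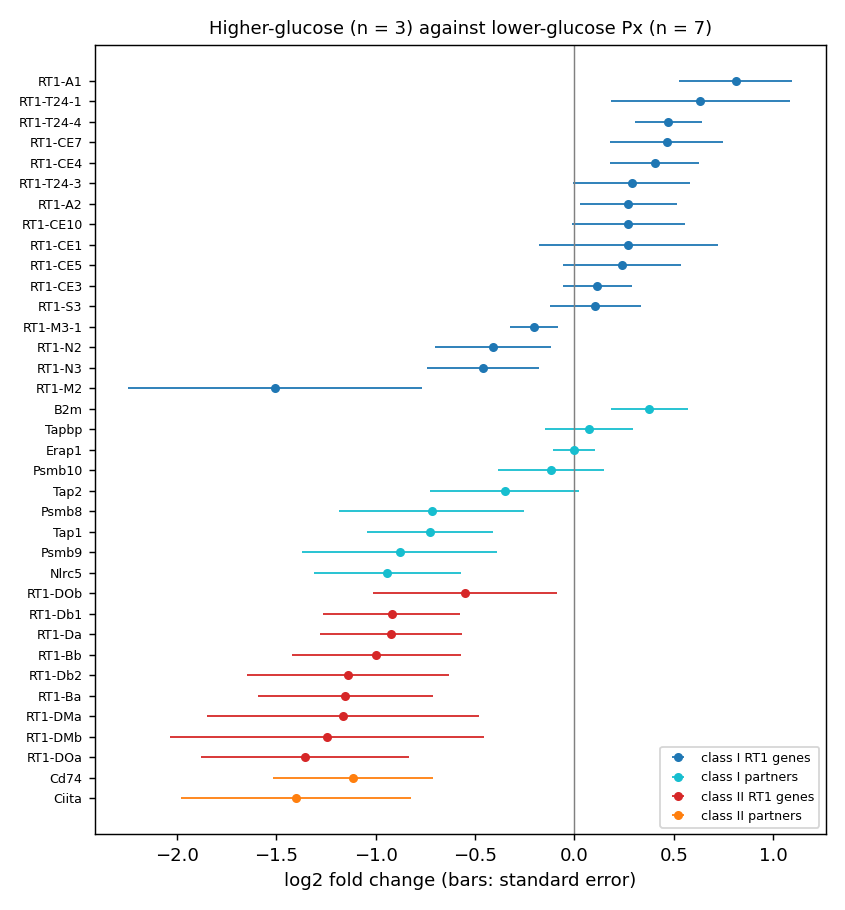
Log2 fold change (x axis) of the 36 tested members in higher- against lower-glucose Px, with bars for the standard error. Class II genes lie to the left of 0, most class I RT1 genes to the right, and none passed the test. RT1-DMa, RT1-Db2 and RT1-M2 passed the filter chiefly through lower-glucose Px.

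**Figure D5:**
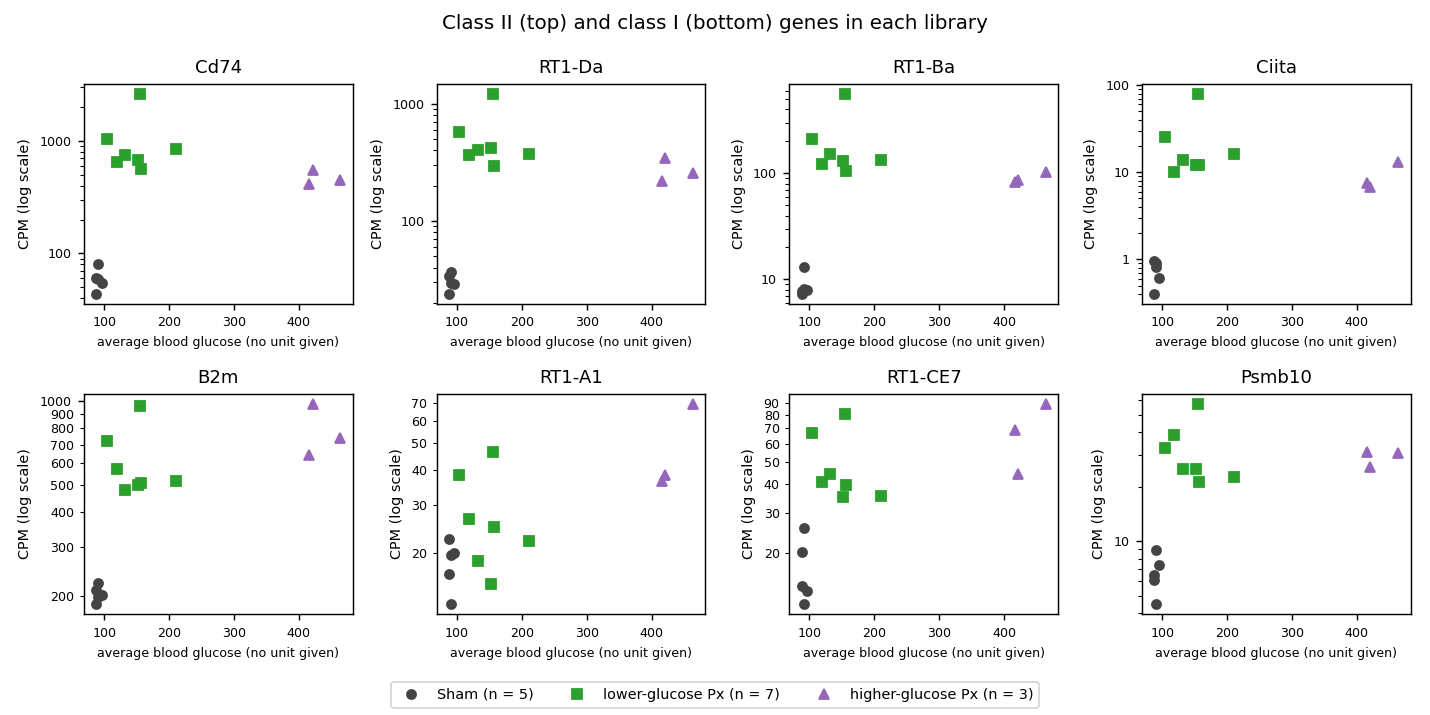
CPM (log scale) of 4 class II genes and partners (top) and 4 class I genes and partners (bottom) against average blood glucose in each library. Cd74 is 419 to 550 CPM in the 3 higher-glucose libraries, below all lower-glucose ones, and RT1-A1 is 36.5 to 69.4 CPM there.

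Of the class II over class I pairs, Cd74 over B2m differed between the Px groups and Ciita over Nlrc5 did not pass. Cd74 over B2m was 0.59 ± 0.44 (SD, n = 7) in lower-glucose Px and −0.72 ± 0.11 (SD, n = 3) in higher-glucose Px on the log2 scale, a difference of −1.31 (exact two-sided permutation test, p = 0.00833, the smallest that 120 splits can give, adjusted 0.0146). All 3 higher-glucose libraries lay below all 7 lower-glucose ones, and without any 1 library the difference was −1.17 to −1.39 (adjusted p from exact tests up to 0.0432). With the boundary at 200, which moves the rat at 211 to the higher group, it was −0.93 and did not pass (exact test, adjusted p = 0.0833). B2m over Ptprc was 3.90 ± 0.61 and 5.47 ± 0.46, a difference of 1.58 (exact p = 0.00833, adjusted 0.0146), and 0.99 with the boundary at 200 (exact test, adjusted p = 0.178). Cd74 over Ptprc did not differ detectably (4.49 ± 0.21 and 4.75 ± 0.45, difference 0.26, exact p = 0.233), although without higher-glucose replicate 15 it did (0.52, exact test, adjusted p = 0.0432). Ciita over Nlrc5 (−0.26, exact p = 0.558, and 0.022 without higher-glucose replicate 19) and the proteasome pairs (−0.82, −0.73 and −0.16, exact p = 0.15, 0.192 and 0.708) did not pass. Beside these, Ptprc was 22.2 to 136 CPM in lower-glucose and 12.5, 17.6 and 24 CPM in higher-glucose Px, the macrophage sum 712 to 3705 and 768 to 1044 CPM and the dendritic sum 90.0 to 415 and 80.0 to 104 CPM. The 10 fibroblast and stellate cell markers summed to 161 to 437 CPM in Sham. Their sum was 2764 to 6976 CPM in lower-glucose and 1274 to 2047 CPM in higher-glucose Px, and the groups did not overlap. Of these 10 genes, 4 were called lower in higher- than in lower-glucose Px, where 4.88% of all genes were called in either direction. Genes with every higher-glucose library below every lower-glucose one made up 4 of these 10 and 4.73% of all genes. The 8 duct markers summed to 192 to 274, 473 to 563 and 387 to 446 CPM and the 8 endothelial markers to 316 to 480, 463 to 609 and 595 to 794 CPM in the same order. Their part in the ratios was not tested.

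Among the 7 lower-glucose Px rats, over a glucose of 104 to 211, no member followed glucose. On log2 glucose 0 of 38 members passed (edgeR, 0 at an unadjusted p under 0.05), and 0% of 15695 genes did. Slopes were 0.31 ± 0.93 for Cd74, −0.04 ± 0.84 for RT1-Da, −0.19 ± 0.42 for B2m and 1.40 ± 0.62 for Nlrc5 per doubling of glucose, with standard errors wide enough to hide sizeable trends. Replicate 8, at a glucose of 155, was higher than the median of the other 6 by 3.69 times for Cd74, 6.17 times for Ciita, 3.16 times for RT1-Da, 1.86 times for B2m and 1.10 times for Erap1. For members with a mean of at least 5 CPM the median of this excess was 3.51 times for 4 class II RT1 genes and 2.0 times for 13 class I RT1 genes.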

How the data were processed

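Per the labels' protocols, a miRNeasy kit gave the RNA, and directional libraries were made from its polyadenylated part. The authors deposited raw read counts per gene with exon lengths in bases, which per the file headers have the layout of featureCounts. The submitters' processing notes name FastQC, Subread, featureCounts and limma. No source used here gives the genome build, annotation, strand setting or treatment of reads that map more than once. Gene positions are the count table's. Rat references commonly carry the RT1 haplotype of another strain, so reads of polymorphic Lewis genes may be counted unevenly. The authors' deposited comparison table was not used.

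Members, gene lists and tests were chosen with earlier results of these data known. Groups followed the labels, with Px divided at a glucose of 300. Genes were filtered with filterByExpr (minimum count 10, total 15), scaled by TMM and tested with edgeR 4.0.16 (R 4.3.3). A model of 2 groups gave Px against Sham, a model of 3 groups the comparisons of the glucose groups, and a model of 7 libraries the slope. P-values measure the spread between libraries. Ratios used counts + 0.5. Alternatives were DESeq2 1.42.0, limma 3.58.1 voom, other scalings and filters, covariates, a boundary of 200 and leaving out each library. All members could be named, with each library's values at a mean of at least 5 CPM. From other lists up to 2 rising and 2 falling genes by smallest p, the standard proteasome, promoter-factor subunits and Ptprc could be named. No libraries were identical. The fits were tested on simulated data. Promoter sequences are RefSeq's, GRCr8. Library totals set the depth.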

Additional observations from a re-analysis of the deposited data

Results flagged for a closer look

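In the lower-glucose Px group, replicate 8 lay far above the other 6 libraries for 10 of the 26 members with a mean of at least 5 CPM. Its levels were 2639 CPM for Cd74, 80.0 for Ciita, 1218 for RT1-Da, 563 for RT1-Ba, 386 for RT1-Bb, 64.7 for Tap1, 48.1 for RT1-S3, 33.8 for Psmb9, 18.5 for RT1-N3 and 9.80 for RT1-CE3. Its log2 ratio of Psmb8 to Psmb5, −1.30, stood apart as well. Within Sham, replicate 26 stood above the rest for RT1-Ba (13.2 CPM), RT1-Bb (11.8 CPM), RT1-S3 (14.6 CPM) and Tap1 (9.98 CPM), replicate 27 for Erap1 (63.2 CPM) and replicate 25 for RT1-CE1 (10.5 CPM). These 17 flags came from 66 tests of a group and a measure, of which chance flags about 1 in 20, and members that rise together are not independent tests.

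The log2 ratio of Cd74 to B2m was lower in higher- than in lower-glucose Px (difference −1.31) and that of B2m to Ptprc higher (1.58), each with all 3 higher-glucose libraries on 1 side of all 7 lower-glucose ones (exact two-sided permutation test, adjusted p = 0.0146). Neither passed with the boundary at 200.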

How the results depend on the processing

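Class II calls in Px against Sham, 4 of them for genes that passed the filter only through Px, held under every scaling, test and left-out library run, and ended with the macrophage score. By library totals 21 members and 6 class I RT1 genes were higher, Erap1 was −0.23, RT1-T24-4 −0.10 and Tapbp −0.012, 1 member was lower in lower-glucose Px, 13 were higher and 2 lower in higher-glucose Px, and B2m between the Px groups was −0.087. The 21 hold the 4 genes that passed the filter only through Px. The counts of the glucose groups were likewise taken over members that include such genes, with RT1-DMa and RT1-M2 besides these 4. All genes then gave 2667 higher and 7950 lower, against 5242 and 4596 with TMM. With endocrine scaling they gave 7436 and 998, 0 members and 0 class I RT1 genes were lower, RT1-M3-1 was 0.23, 0 members were lower in higher-glucose Px, 11 were lower between the Px groups and B2m there was −0.10. With a mean of at least 5 CPM 4 class II RT1 genes were tested and higher, and 0 members, 0 class I RT1 genes and, in higher-glucose Px, 0 members were lower. With a minimum log2 change of 1 these 3 counts were 0. DESeq2 called 2 members lower between the Px groups, and 678 of 15661 genes. With the acinar score 8 class I RT1 genes were higher, 0 members and 0 class I RT1 genes lower, and RT1-M3-1 0.023. All genes gave 3344 higher and 2742 lower beside that score. With the macrophage score 0 members, 0 class I and 0 class II RT1 genes were higher, and 0 members and 0 class I RT1 genes lower. Values that turned were Ciita −1.49, Cd74 −0.36, Psmb10 −0.30, Psmb9 −2.10, Psmb8 −1.16, Tap1 −1.17, Tap2 −1.19, Tapbp −1.10, RT1-CE10 −1.37, RT1-CE1 −3.05, RT1-CE4 −0.76, RT1-CE5 −1.55, RT1-CE7 −1.05, RT1-N3 −0.078, RT1-S3 −0.67, RT1-A1 −1.25, RT1-A2 −0.60, RT1-DOb −0.84, RT1-DMb −2.79, RT1-Bb −0.59, RT1-Ba −0.72 and RT1-Db2 −0.23. Their edgeR adjusted p ran from 0.331 to 0.982, and 0 of 15199 genes passed in that fit. With 94.6% of the variance of the score between Px and Sham, the fit can hardly separate score from surgery. The turned signs therefore give no direction, and the cause was not tested. With the boundary at 200, Cd74 over B2m differed by −0.93 and B2m over Ptprc by 0.99 between the Px groups. With each library left out in turn, members lower ran from 0 to 1 in Px, lower-glucose Px and higher-glucose Px against Sham, class I RT1 genes lower from 0 to 1, and members higher between the Px groups from 0 to 1. Cd74 over Ptprc ran from −0.65 to −0.35 in Px minus Sham and from 0.11 to 0.52 between the Px groups, Ciita over Nlrc5 there from −0.66 to 0.022, and Psmb10 over Psmb7 from −0.26 to 0.016. No paired analysis was possible because the groups share no replicate numbers. Lower Sham depth limits members under the filter.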

Other observations

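Cd1d1, which presents lipids to NKT cells and lies outside the RT1 symbols, rose in Px (1.67 ± 0.25, edgeR adjusted p = 2.13e-05) and was higher in higher- than in lower-glucose Px. It was 8.89 to 10.5 CPM in Sham, 18.2 to 30.0 CPM in lower-glucose Px and 43.2 to 51.4 CPM in higher-glucose Px, and the 3 groups did not overlap (0.97 ± 0.14 between the Px groups, edgeR adjusted p = 0.00109). Hfe was 37.5 to 48.1 CPM in Sham, 19.2 to 28.0 CPM in lower-glucose Px and 31.5 to 38.4 CPM in higher-glucose Px (0.52 ± 0.11 between the Px groups, edgeR adjusted p = 0.0123). These were 2 of the 5 class I-like genes tested, and they were named after their values were seen. Of all genes tested, 4.88% were called between the Px groups. Every higher-glucose library lay above every lower-glucose one in 5.22%, and every Px library above every Sham library in 20.6%.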
